A study of Mus musculus with 2 samples.

Results

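The airway secretory genes examined here are 10 genes named for the secretory cells of the conducting airways. They are the secretoglobins Scgb1a1, Scgb3a1 and Scgb3a2, the cytochrome P450 Cyp2f2, the BPI-fold genes Bpifa1 and Bpifb1, the mucins Muc1 and Muc5b, and the goblet cell genes Spdef and Agr2. They were taken by name, and each matched 1 of the 43346 Ensembl genes in the tables. The study sequenced total RNA from whole lung of mouse embryos of the B6NCrl strain at embryonic day 15.5, with no treatment or genotype contrast. Its single group has 2 libraries, labelled as biological replicates: lungs of 78 embryos were pooled for replicate 1 and of 62 for replicate 2, males and females together. RNA longer than 200 nt was extracted with the mirVana kit, and 10 ng went into each library with spike-in controls. A pool averages over its embryos, so the spread between the libraries is a spread between pools and their handling, not between embryos. No test between conditions exists in this design.

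The lining of the airway holds club cells, which secrete secretoglobins and use cytochrome P450 enzymes to break down inhaled compounds, and goblet cells, which secrete gel-forming mucins under the control of the transcription factor SPDEF. BPI-fold proteins are secreted defence and surface-active proteins of the nose, trachea and large airways. In the mouse these programmes are known to start at different times, with Scgb3a2 among the early markers of the embryonic airway and Scgb1a1 and the gel-forming mucins later. Whole tissue was measured, so fewer cells of a type and less RNA per cell cannot be told apart.

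Levels are given in TPM, the share of transcripts corrected for gene length, so the levels of different genes can be compared. Each value carries the interval that the authors deposited with it, for which no confidence level is given. Detection required at least 1 TPM in each library. It was met by 7 of the 10 secretory genes, against 33.6% of all Ensembl genes in the tables. The libraries held 39530296.8 and 35733530.1 estimated reads in genes. General epithelial genes were all present (12 of 12 detected), with Krt8 at 299 ± 26.8 TPM (SD, n = 2) and the adhesion gene Epcam at 244 ± 3.26. The SD of the log2 ratio between the libraries narrowed with level, from 0.66 over all genes between 1 and 5 TPM to 0.27 between 5 and 20 TPM and 0.097 between 100 and 1000 TPM.

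**Figure D1:**
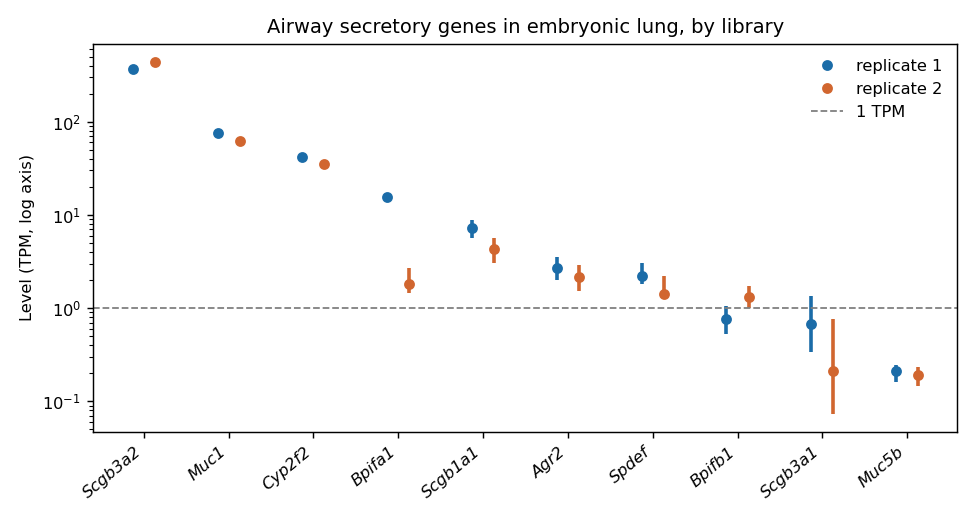
Level of the 10 secretory genes in TPM (log axis), replicate 1 in blue and replicate 2 in orange, with the deposited interval as a bar and 1 TPM as a dashed line. Scgb3a2 stands highest in both libraries, Muc5b has the lowest points at 0.21 and 0.19 TPM, and the Bpifa1 points lie far apart at 15.4 and 1.82 TPM. The Muc5b interval overlaps that of Scgb3a1 in replicate 2.

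The mean levels of the 10 genes ran from 0.20 to 404 TPM, and a single secretoglobin made up most of their sum. The summed level was 515.6 TPM in replicate 1 and 549.9 in replicate 2, and Scgb3a2 held 71.4% and 80.05% of it. Muc1 held 14.7% and 11.4%, and Cyp2f2 8.20% and 6.45%. The other 7 genes shared the small remainder. The order Scgb3a2, Muc1, Cyp2f2 and then Bpifa1 held in both libraries with separate intervals. Scgb1a1 lay above Agr2 in both libraries with separate intervals. Of the lower genes, neighbours by mean level, Agr2 and Spdef, Spdef and Bpifb1, Bpifb1 and Scgb3a1, and Scgb3a1 and Muc5b, had intervals that overlapped in at least 1 library. Bpifa1 lay above Scgb1a1 in replicate 1 and below it in replicate 2, so it has no fixed place in the order.

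Among the secretoglobins, small secreted proteins of the airway surface, Scgb3a2 (ENSMUSG00000038791.10) was the abundant member. It stood at 368 TPM in replicate 1 (interval 350 to 371) and 440 in replicate 2 (418 to 442). It rested on 4402 and 4895 estimated reads, and it ranked 352nd by mean level among all genes. Replicate 2 was the higher library and the intervals did not overlap. After scaling between the libraries by TMM (trimmed mean of M-values), the level in replicate 2 was 1.26 times that in replicate 1, a log2 ratio of 0.33. On the reads alone the ratio was 1.26, with a 95% exact binomial interval of 1.21 to 1.31 that covers counting error only. Of 642 genes with a mean level within 2-fold of Scgb3a2, 2 had a ratio as large or larger in either direction. These were the atrial myosin light chain gene Myl7, lower in replicate 2 (log2 ratio -1.34), and the pseudogene Rpl10-ps3 (0.37), both named after their values were seen.

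The level of Scgb3a2 can be set beside other epithelial genes. It was 1.66 ± 0.187 times that of Epcam (SD, n = 2) and 1.17 ± 0.132 times that of Wfdc2, a secreted protease-inhibitor-like gene of the airway. Sftpc, the surfactant gene of the distal lung, stood at 16 ± 3.795 times the level of Scgb3a2. That ratio was 18.7 in replicate 1 and 13.3 in replicate 2, since Sftpc was lower in replicate 2 (6881 and 5864 TPM) while Scgb3a2 was higher there. Nearly all of the Scgb3a2 level was assigned to a single transcript, Scgb3a2-202, with 99.2% of the gene's TPM in replicate 1 and 99.4% in replicate 2. The other transcripts, Scgb3a2-201 and Scgb3a2-203, stayed under 2 TPM in both libraries.

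Scgb1a1 (ENSMUSG00000024653.2, chromosome 19, 9083636-9087958, minus strand, GRCm38), the classical club cell secretoglobin, was present at a low level. It stood at 7.32 TPM in replicate 1 (5.64 to 8.92) and 4.31 in replicate 2 (3.04 to 5.66), on 73 and 40 reads. The deposited intervals just overlapped. On the reads the ratio of replicate 2 over 1 was 0.619, with a counting interval of 0.410 to 0.923, and 193 of 3821 genes of like level (5.05%) had a ratio as large. The gene has 1 annotated transcript of 476 nt in 3 exons.

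Scgb3a1 (ENSMUSG00000064057.8, chromosome 11, 49663610-49665118, plus strand), a secretoglobin of larger airways and mucous cells, was near the limit of what these depths can show. It stood at 0.68 TPM in replicate 1 (0.342 to 1.36) and 0.21 in replicate 2 (0.0730 to 0.771), from 8 and 2 reads. The value in replicate 2 lies under the 0.3095 TPM that 3 reads would give for this gene. The ratio of reads was 0.283, with an interval of 0.0292 to 1.42, so a difference between the libraries was not detectable at this depth. Of the 40 genes whose symbol starts as a secretoglobin, 6 had any read, and no further family member reached 1 TPM in a library.

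Cyp2f2 (ENSMUSG00000052974.7, chromosome 7, 27119909-27133660, plus strand), the P450 enzyme through which club cells convert naphthalene, was well expressed. It reached 42.3 TPM in replicate 1 (39.6 to 43.5) and 35.5 in replicate 2 (33.1 to 36.6). The intervals did not overlap, but the ratio was small, with a log2 value of -0.18, and 10.1% of genes of like level had one as large. The spliced coding transcript Cyp2f2-201 took 97.75% and 98.8% of its TPM. Cyp2f2 was the exception among the 10 genes in having estimated reads that were not whole (within 0.005) in both libraries.

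Other metabolic genes of club cells were expressed beside it. Of 16 such genes, 12 were detected. The median level over all 16, with no minimum, was 20.6 ± 1.57 TPM. Over all genes with a mean of at least 1 TPM it was 16.02 ± 0.675, so the medians rest on unlike filters. Cyb5a, the cytochrome b5 that passes electrons to P450 enzymes, led at 330 ± 5.49 TPM, followed by the aldehyde dehydrogenase Aldh1a7 at 112 ± 1.06 and the carbonyl reductase Cbr2 at 87.35 ± 0.240. Cbr2 stood at 2.26 ± 0.287 times the level of Cyp2f2. Cyp2b10, Adh7, Sult1d1 and Cyp2a5 were not detected, at 0.16 to 0.50 TPM in replicate 1 and 0.09 to 0.36 in replicate 2. Many of these genes are active in cells other than club cells, and near copies such as Aldh1a1 and Aldh1a7 can share reads. Of the 16, 12 averaged at least 1 TPM, and none of these was apart between the libraries by the rule used for Bpifa1 with the minimum there. The same rule called 1.07% of all 15152 genes at that level. Genes under that mean could not be called.

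The BPI-fold genes lie in a cluster on chromosome 2, and there the widest difference among the secretory genes was found. Bpifa1 (ENSMUSG00000027483.7, 154142880-154149219, plus strand), a secreted protein of the nasal and tracheal epithelium, and Bpifb1 (ENSMUSG00000027485.11, 154190818-154220369, plus strand), a mucosal protein of the same family, start 47.9 kb apart. The annotation gives Bpifb1 alternative first exons whose starts lie 9561 bases from each other. Printed here are the 250 bases before each start, from RefSeq on GRCm38.p6, 5′ to 3′ on the plus strand. They are shown because Bpifa1 differed widely between the libraries and Bpifb1 has more than 1 start. The window of Muc1, whose levels differed far less between the libraries, is added for contrast. Capitals mark matches, on either strand, to 6 motifs picked after the sequences had been seen. One is the TATA box, searched as TATAAA. The forkhead type was searched as TGTTTAC, then as TATTTAC, then as TGTTTGC. Letters that resemble sites of the lung factor NKX2-1 were searched as CTCAAG, then as CAAGTG, and none of these motifs overlaps another in the windows printed.
Bpifa1, chr2:154142630-154142879: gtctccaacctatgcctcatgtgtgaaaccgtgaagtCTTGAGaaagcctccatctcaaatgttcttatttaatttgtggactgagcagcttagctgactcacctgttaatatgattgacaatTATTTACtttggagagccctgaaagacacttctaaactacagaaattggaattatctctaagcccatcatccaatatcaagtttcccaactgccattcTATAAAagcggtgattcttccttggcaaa
Bpifb1, upstream start (Bpifb1-202), chr2:154190568-154190817: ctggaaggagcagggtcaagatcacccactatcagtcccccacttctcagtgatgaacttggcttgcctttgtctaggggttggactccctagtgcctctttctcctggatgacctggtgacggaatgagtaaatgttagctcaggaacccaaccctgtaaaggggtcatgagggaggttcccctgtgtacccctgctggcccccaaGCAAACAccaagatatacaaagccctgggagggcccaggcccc
Bpifb1, downstream start (Bpifb1-201), chr2:154200130-154200379: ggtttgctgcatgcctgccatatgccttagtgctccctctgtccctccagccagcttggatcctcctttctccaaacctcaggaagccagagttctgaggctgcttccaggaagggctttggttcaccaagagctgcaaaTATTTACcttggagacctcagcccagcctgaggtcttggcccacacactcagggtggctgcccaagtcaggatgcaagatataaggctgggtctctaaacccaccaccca
Muc1, chr3:89228806-89229055: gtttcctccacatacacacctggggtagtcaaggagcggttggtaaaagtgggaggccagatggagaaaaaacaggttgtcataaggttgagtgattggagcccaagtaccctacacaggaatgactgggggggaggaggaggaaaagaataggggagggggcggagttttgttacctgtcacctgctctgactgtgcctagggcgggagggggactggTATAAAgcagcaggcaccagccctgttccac

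The windows differ in composition. That of Bpifa1 has 39.2% G and C, those of Bpifb1 have 55.6% and 55.2%, and that of Muc1 has 54.8%, against a median of 52.4% over 32851 windows of the same length in the table. Bpifa1 and Muc1 hold TATAAA, starting 29 and 31 bases before the annotated start, a match found in 12.4% of all windows. Neither Bpifb1 window holds those letters. The Bpifa1 window and the downstream Bpifb1 window each hold TATTTAC (2.73% of all windows), and the upstream Bpifb1 window holds the reverse complement of TGTTTGC (4.30%). Bpifa1 further holds the reverse complement of CTCAAG (13.3% of all windows). In all, 7 of the 10 genes had a window in the table. Such matches describe the letters in these windows and say nothing of binding.

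Bpifa1 was far apart between the libraries. It stood at 15.4 TPM in replicate 1 (interval 13.9 to 16.9, 411 reads) and 1.82 in replicate 2 (1.46 to 2.72, 45 reads). The replicate 1 library was the high one, and the intervals were well separated. After scaling, replicate 1 was 8.07-fold higher, with a counting interval of 5.93 to 11.25 on the reads. Genes were called apart where their mean level was 5 TPM or more, the scaled levels differed at least 2-fold and the deposited intervals did not overlap. Of the secretory genes 5 reached that mean level and 1, Bpifa1, was called, against 0.364% of all 11261 genes at that level (0.249% higher in replicate 1 and 0.115% higher in replicate 2). Bpifa1 reached a mean of 5 TPM only through replicate 1, its high library, so nothing is read from that count. With the minimum lowered to a mean of 1 TPM, which Bpifa1 met in each library, it was again the 1 called of 8 secretory genes, against 1.07% of 15152 genes (0.719% higher in replicate 1 and 0.35% in replicate 2). With no minimum it was the 1 of 10, against 1.35% of 25036 genes (0.947% and 0.399%). Within 2-fold of its mean level, 23 of 4334 genes (0.531%) had a ratio as large. That mean too rests mainly on replicate 1, so nothing is read from this share. All reads of Bpifa1 were assigned to the coding transcript Bpifa1-201 in both libraries.

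**Figure D2:**
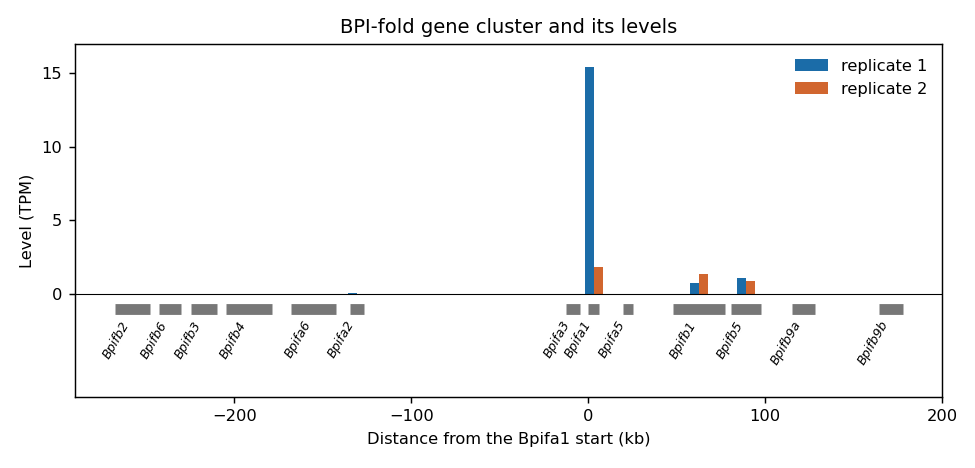
Genes of the BPI-fold cluster by distance from the Bpifa1 start (kb, grey bars below 0 mark gene bodies) with their level in TPM, replicate 1 in blue and replicate 2 in orange. Bpifa1 at 15.4 and 1.82 TPM stands highest, though its interval overlaps that of Bpifb1 in replicate 2, and 9 of the 13 genes have no read in either.

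The neighbours of Bpifa1 were low in both libraries. Bpifb1 stood at 0.76 TPM in replicate 1 (0.523 to 1.05, 31 reads) and 1.32 in replicate 2 (1.01 to 1.74, 52 reads), so replicate 2 was its higher library. The deposited intervals overlapped, and scaled like the levels they did not. Its read ratio, replicate 2 over 1, was 1.90 with a counting interval of 1.19 to 3.06, and 20.1% of genes of like level had a ratio as large. Bpifb5, next in the cluster, stood at 1.06 and 0.85 TPM with overlapping intervals. Bpifa2 had 1 read in replicate 1 and 0 in replicate 2. Of the 13 BPI-fold genes on chromosome 2, 4 had any read. The gene Bpifa3, which ends 4.52 kb before the Bpifa1 start, and Bpifa5, which begins 19.7 kb after it, had none in either library, with interval limits of 0.416 and 0.448 TPM for the first and 0.112 and 0.120 for the second.

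Other lists differed in the same direction as Bpifa1, and their values stand here beside it. Apart is meant here by the rule with the minimum at a mean of 1 TPM, which called 0.719% of all 15152 genes higher in replicate 1. Of 14 thymus genes 8 reached 1 TPM in each library, and these 8 were apart and higher in replicate 1. Cd3d, Psmb11 and Rag1, which averaged 1 TPM only through replicate 1, were apart as well, and the median log2 ratio over the 11 genes was -2.26. The whole list summed to 181 TPM in replicate 1 and 43.5 in replicate 2, and none was at 0. The T cell receptor gene Trbc2 stood at 38.2 and 5.20 TPM, the thymic protease gene Prss16 at 30.2 and 9.45, the chemokine gene Ccl25 at 19.6 and 8.67, and Foxn1, which defines thymic epithelium, at 1.60 and 0.30. Of 8 basal cell genes 7 were higher in replicate 1, with sums of 90.5 and 62.1 TPM and a median of -0.79. Krt17 (15.4 and 6.30) and Krt5 (9.51 and 3.95) were apart by the rule with the minimum at 1 TPM. The basal cell regulator Trp63, named after its values were seen, stood at 3.43 and 1.71. In the list of squamous and oesophageal genes, Sprr2a2 was apart (13.0 and 3.52 TPM), the sums were 43.7 and 24.1 TPM, and Crnn was at 0 in both libraries. The near copies of Sprr2a2 and Trbc2 make their single values uncertain. Airway cartilage, whose list summed to 91.5 and 86.1 TPM with a median of -0.0024, had no gene apart. The median log2 ratio over 15056 genes averaging at least 1 TPM, with values above 0 in both libraries, was 0.0056. Stomach and gut genes, 2 of 11 detected, had Pgc at 12.6 ± 1.00 TPM (SD, n = 2), and Cdx2, Gkn1 and Atp4b were at 0 in both libraries. The part of thymus, basal or squamous cells in the Bpifa1 result was not tested.

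**Figure D3:**
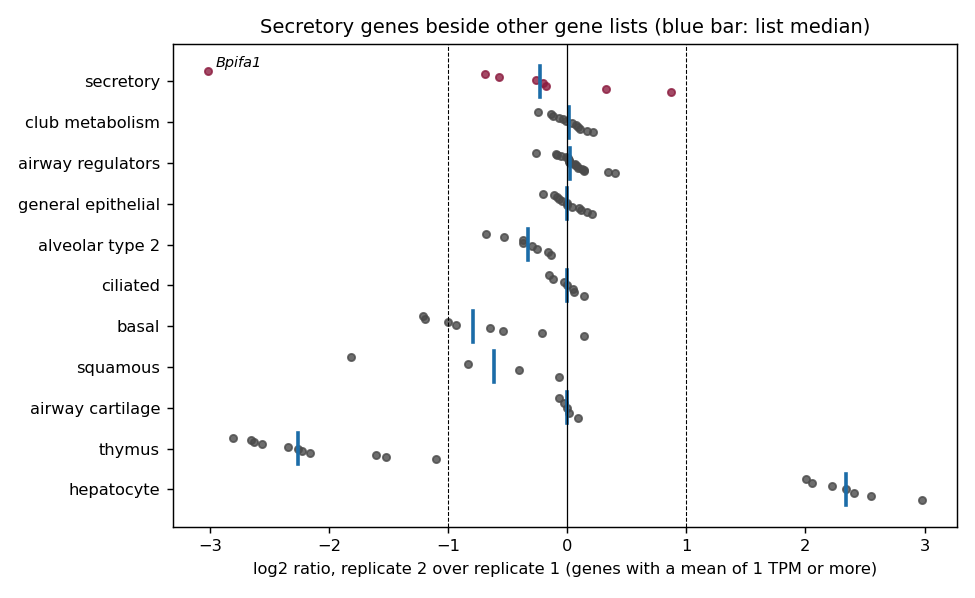
log2 ratio of replicate 2 over replicate 1 for each gene averaging at least 1 TPM (points), by gene list, with the list median as a blue bar and 2-fold as dashed lines. Bpifa1 at -3.01 lies beyond the thymus genes drawn, while the general epithelial genes lie close to 0. The thymus gene Cd8a at -3.67, with a mean under 1 TPM, is not drawn.

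Mucins were represented by the membrane-bound Muc1 and hardly at all by gel-forming ones. Muc1 (ENSMUSG00000042784.5, chromosome 3, 89229057-89233381, plus strand), which coats the apical face of many epithelia, stood at 75.8 TPM in replicate 1 (70.01 to 80.1) and 62.8 in replicate 2 (57.3 to 66.7). The deposited intervals did not overlap, and after scaling they met, with a log2 ratio of -0.20. On the reads the ratio of replicate 2 over 1 was 0.828, with a counting interval of 0.786 to 0.871. Of genes of like level, 5.64% had a scaled TPM ratio as large. Muc1 stood at 0.285 ± 0.0415 of the level of Epcam (SD, n = 2). Muc5b (ENSMUSG00000066108.7, chromosome 7, 141839070-141873084, plus strand), the main gel-forming mucin of the airway, stood at 0.21 TPM (0.160 to 0.247) and 0.19 (0.146 to 0.234). These were the lowest point values of the 10 genes in both libraries, though in replicate 2 the interval overlapped that of Scgb3a1. The Muc5b transcript is 14964 nt long, so it collected 81 and 70 reads at that level. Scgb1a1 had 73 and 40 reads over 476 nt, and its level per length was 34.9 and 22.7 times that of Muc5b. The counts of Muc5b were stable, with a read ratio of 0.977 (counting interval 0.699 to 1.36).

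The other mucin genes of the chromosome 7 cluster also had point values under 1 TPM. Muc5ac, the inducible gel-forming mucin, stood at 0.25 and 0.15 TPM, Muc2 of the intestine at 0.32 and 0.06, and Muc6 of the stomach at 0.07 and 0.10. The deposited intervals of Muc2, 0.405 to 1.64 TPM in replicate 1 and 0.213 to 1.44 in replicate 2, lie above its point values, so its place beside Muc5b is uncertain. A deposited interval can thus leave out the TPM it belongs to, as it also does for Sftpc and Krt8, whereas each of the 10 secretory genes lies within its own. Of the 12 genes whose symbol starts as a mucin, each had reads in at least 1 library and Muc1 alone was detected by the rule of 1 TPM in both. Muc4 came next with 1.40 and 0.75 TPM.

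Part of the Muc1 level was assigned to a short transcript. The coding transcript Muc1-201 (2242 nt, 7 exons) was estimated at 58.1 and 45.1 TPM, and Muc1-202, a processed transcript of 476 nt with no coding annotation, at 17.7 TPM in both libraries. The shares of Muc1-202 were 23.3% and 28.2% of the gene's TPM, though only 5.08% and 6.46% of its reads, since TPM is per length. Its intervals were 11.9 to 22.3 and 12.3 to 22.2 TPM, clear of 0. Of its 476 bases 446 lie within exons of Muc1-201, and 28 of its 377 windows of 100 bases occur in no other Muc1 transcript, so its estimate rests on a short stretch of sequence. That comes to an average of 13.1 reads in replicate 1 and 12.2 in replicate 2 that could tell it apart.

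The goblet cell genes Spdef and Agr2 were detected at low levels. Spdef (ENSMUSG00000024215.9, chromosome 17, 27714352-27728955, minus strand), the ETS factor that drives goblet cell differentiation, stood at 2.19 TPM in replicate 1 (1.83 to 3.08) and 1.40 in replicate 2 (1.25 to 2.21). Agr2 (ENSMUSG00000020581.7, chromosome 12, 35992907-36004087, plus strand), a disulfide isomerase of the endoplasmic reticulum needed for folding mucins, stood at 2.69 (2.00 to 3.50) and 2.14 (1.515 to 2.90). The intervals of both genes overlapped between the libraries. Their read ratios were 0.733 for Spdef (counting interval 0.519 to 1.03) and 0.830 for Agr2 (0.525 to 1.30). Agr3, the paralogue of Agr2, stood at 0.62 TPM in both libraries.

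The wider mucus programme was low as well. Of 14 goblet and mucus genes measured, 2 were detected, beside 33.6% of all Ensembl genes. For club cell metabolism 12 of 16 were, but many of those genes are active in other cells, so the lists are not alike. The 2 detected goblet and mucus genes were Creb3l1 and Foxa3. Creb3l1, a membrane-bound factor of secretory cells, stood at 9.62 ± 0.0990 TPM (SD, n = 2) and Foxa3, a forkhead factor of goblet cells, at 1.94 ± 0.127. The list median was 0.2425 ± 0.0530 TPM. The trefoil gene Tff1 had no read in either library, with interval limits of 0.289 and 0.315 TPM, and Clca1, a goblet cell secretory gene, had 2 and 5 reads. None of the 4 genes of this list that averaged at least 1 TPM was apart between the libraries, beside 1.07% of all genes at that level. Genes of protein folding in the endoplasmic reticulum, which all cells use, were high, with 11 of 12 detected and Hspa5 at 859.7 ± 8.05 TPM, Pdia3 at 732 ± 13.8 and Hsp90b1 at 659 ± 28.0. Ern2, the sensor of that stress pathway in mucous cells, was the exception at 0.22 and 0.07 TPM.

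The listed regulators of airway fate were all present in whole lung, which does not place them in airway cells. Of 19 such regulators 19 were detected, with a median of 19.2 ± 0.912 TPM. Nkx2-1, which defines lung epithelium, led at 72.6 ± 2.16, followed by Cebpb at 54.5 ± 4.27 and the Notch target Hes1 at 40.5 ± 1.04. Notch signalling is known to favour secretory over ciliated fate. None of the regulators was apart between the libraries by the rule with the minimum at 1 TPM, which called 1.07% of all 15152 genes. After scaling 14 of 19 were higher in replicate 2, with a median log2 ratio of 0.021. Over all genes averaging at least 1 TPM, 7779 were higher there and 7277 lower, with a median of 0.0056. Among other markers of airway secretory cells 10 of 13 were detected. Wfdc2 stood at 346 ± 4.55 TPM, the lysozyme Lyz2, also of macrophages, at 161 ± 17.5 and the tight junction gene Cldn10 at 59.97 ± 0.410. The polymeric immunoglobulin receptor gene Pigr had no read in either library. Ciliated cell genes, 7 of 8 detected, had a median log2 ratio of -0.0023, with Tppp3 at 53.5 ± 0.467 TPM and Foxj1 at 17.8 ± 0.163.

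The other secretory genes differed less than Bpifa1. Of the 10 genes 8 were lower in replicate 2 and 2, Scgb3a2 and Bpifb1, were higher, with log2 ratios from -3.01 to 0.87 and a median of -0.23. Of the 8 that averaged at least 1 TPM, 6 were lower and 2 higher, beside 7277 lower and 7779 higher over all genes at that level. With intervals scaled in the same way as the levels and no minimum fold, 4 of the 8 secretory genes at that level were apart, against 11.8% of all genes. Bpifa1 and Cyp2f2 were higher in replicate 1, as were 4.51% of all genes, and Scgb3a2 and Bpifb1 were higher in replicate 2, as were 7.3%. Bpifb1 averaged 1 TPM only through replicate 2, its high library (0.76 and 1.32 TPM), so nothing is read from these counts of the 8. Alveolar type 2 genes were also lower in replicate 2, 8 of 8 with a median of -0.33 and none apart at 2-fold. Sftpc, Lpcat1 and Sftpa1 led that list at 6372 ± 719.5, 77.3 ± 7.79 and 72.3 ± 15.45 TPM. Distal tip genes, 8 of 8 detected, had a median of 0.087, with none apart. Neuroendocrine genes, 7 of 8 detected, had one of -0.23 over the 7 that averaged at least 1 TPM, with none of these apart. Chgb, under that mean and named after its values were seen, stood at 1.19 and 0.43 TPM. It was 2.63-fold higher in replicate 1, with separate intervals. Genes of the liver were higher in replicate 2, with sums of 33.3 and 155 TPM, which is the direction of Scgb3a2 and Bpifb1. The 6 of 8 that reached 1 TPM in each library were apart by the 2-fold rule with the minimum at 1 TPM. Fgb, which averaged 1 TPM only through replicate 2, was apart as well. Afp, the fetal liver plasma protein, stood at 10.7 and 53.6 TPM. Of 8 muscle and heart genes 4 were apart and higher in replicate 2 and 1, Myh6, higher in replicate 1. The same rule called 0.35% of all 15152 genes higher in replicate 2 and 0.719% higher in replicate 1. The part of these tissues in the results for Scgb3a2 and Bpifb1 was not tested.

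**Figure D4:**
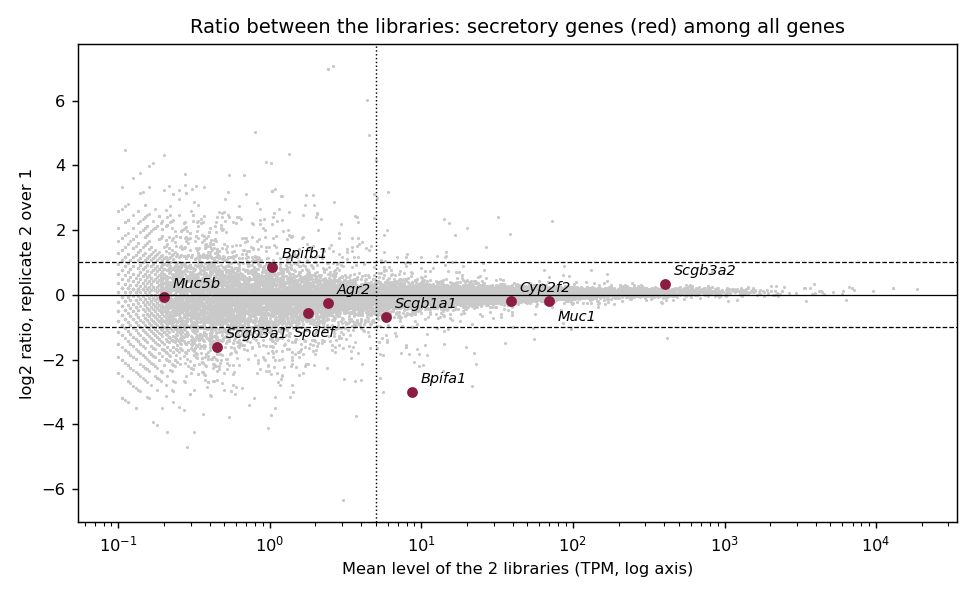
log2 ratio of replicate 2 over replicate 1 against mean level in TPM (log axis) for genes of the tables (grey) and the 10 secretory genes (red), with 2-fold as dashed lines and 5 TPM as a dotted line. Bpifa1 at -3.01 lies below most genes of its level, and Scgb3a2 at 0.33 lies at the edge of a narrow band at high level.

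The transcript tables list 25 transcripts of the 10 genes. For 7 of the 8 genes with more than 1 transcript, the one leading by TPM was the same in both libraries. Bpifb1 was the exception by TPM, and by estimated reads the leading transcript of Scgb3a1 differed too. All of its reads were assigned to Bpifb1-201 in replicate 1, the transcript of the downstream start printed above, and all to Bpifb1-202 in replicate 2, that of the upstream start. Both code for protein, with 16 exons, and share 1597 bases. Of the windows of 100 bases, 38 of 1538 in Bpifb1-201 and 31 of 1600 in Bpifb1-202 occur in no other transcript of the gene. At 31 and 52 reads this comes to an average of 0.766 reads in replicate 1 and 1.01 in replicate 2 that could tell them apart. In replicate 1 the intervals of the transcripts reached up to 0.849 and 0.700 TPM, so they overlapped, and in replicate 2 up to 1.06 and 1.47. A change of transcript was not detectable at this depth. Few reads also lie behind the transcripts of Scgb3a1, with 3.83 and 4.17 in replicate 1, and behind Spdef-203, a retained-intron transcript that took 18.35% of the TPM of Spdef in replicate 1 from 8.02 reads and had none in replicate 2.

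**Figure D5:**
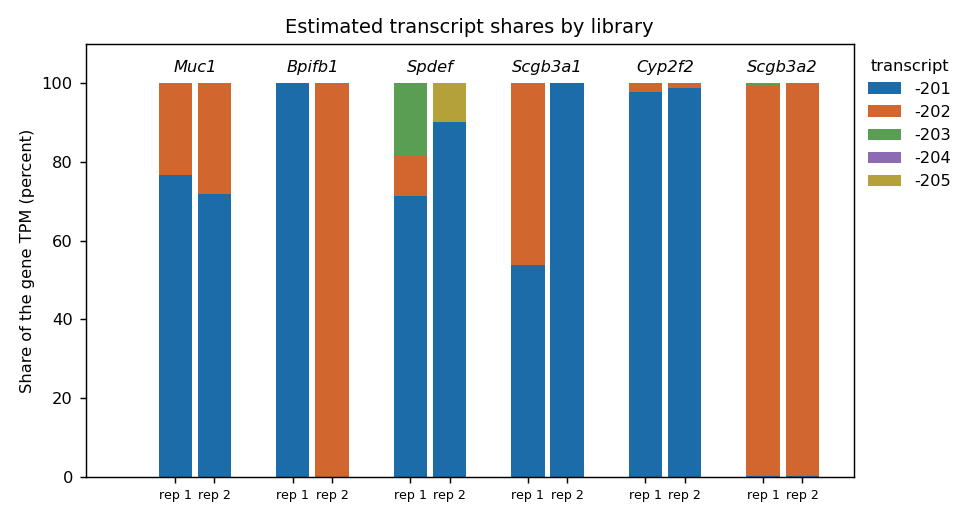
Share of each gene's TPM (percent) assigned to its annotated transcripts in replicate 1 and replicate 2, for 6 of the secretory genes. Scgb3a2 and Cyp2f2 are held by a single transcript, Muc1-202 takes 23.3% and 28.2% of Muc1, and Bpifb1 is assigned wholly to different transcripts in the libraries.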

How the data were processed

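The authors deposited gene and transcript tables per library, on build mm10 with annotation GENCODE M4 per the deposited text that describes the files. Per the file headers the values are expected counts (estimated reads), TPM, FPKM, posterior means, intervals with no confidence level given, and the percent of a gene's TPM held by each transcript. Program, version and use of strand: not given in the sources used here. Per the labels, 10 ng of RNA over 200 nt long entered each library.

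Names were matched by identifier to GENCODE M21 on GRCm38, and 97.96% of identifiers matched. Muc16 and Cblif matched no feature and were not analysed here. Expected counts were rounded and scaled with TMM (edgeR 4.0.16, R 4.3.3), which shifts the TPM of replicate 2 by 0.07 (log2). DESeq2 1.42.0 size factors were an alternative. No pseudocount was used in the reported ratios. No test between conditions was possible. Counting intervals are 95% exact binomial (Clopper-Pearson) and cover counting error only, since reads are not independent molecules. The calling rule was tested on simulated data.

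The 10 genes and the 17 other lists were chosen with earlier results of these data known. The rule for naming took all members, the 3 highest genes of each list, up to 5 per list that were apart, and family members of 1 TPM or more in a library. Lists of other cell types are given mainly by counts and sums, with a few of the genes that rule allows. Other genes named are examples chosen after their values were seen. Proteins were not used here.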

Additional observations from a re-analysis of the deposited data

How the results depend on the processing

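Detection of 7 of the 10 secretory genes stayed within 1.5 times of that number under all 6 alternatives, from 5 at a minimum of 2 TPM to 8 at 0.5 TPM, with 7 and 8 on a single library each and 6 on FPKM. Bpifa1 was the 1 secretory gene apart under all 7 alternatives to the calling rule, 1 of them, the scaling of the intervals, added after seeing the data. The number of all genes apart, 41, was 162 with a minimum mean of 1 TPM, 337 with no filter, 62 where exact binomial p-values of the rounded reads replaced the intervals, and 85 at 1.5-fold, each including the 41. It was 41 with DESeq2 size factors, 42 with TPM as deposited (40 shared) and 40 with scaled intervals. No log2 ratio of a secretory gene changed sign under 7 alternatives, and that of Muc5b was 0 on FPKM. That of Bpifa1 ranged from -3.08 to -2.50 and that of Scgb3a1 from -1.82 to -0.46. The median of the 10 ratios kept its sign. No paired analysis was possible because the design has a single group. Depth limits Scgb3a1, with 8 and 2 reads, and the transcripts of Bpifb1 and Spdef.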
